A study of Mus musculus with 2 samples.

Results

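The genes described here encode the protein machines that carry out respiration in the inner mitochondrial membrane, complexes I to V, and the proteins of the mitochondrial ribosome. They were taken by name: every array probe whose gene name begins with one of the subunit prefixes Ndufa, Ndufb, Ndufc, Ndufs, Ndufv, Sdha to Sdhd, Uqcr, Cox4 to Cox8 or Atp5, or with Mrpl or Mrps and a number. This gave 161 genes with 249 probes, out of 27729 genes on the array. The naming rule itself uses no measured value. By role they comprise 36 subunits of complex I, 4 of complex II, 7 of complex III, 18 of complex IV and 15 of complex V, which make up the 80 respiratory chain subunits, and the 75 ribosomal proteins, 46 of the large and 29 of the small subunit of the mitochondrial ribosome. A further 2, Ndufaf1 and Ndufaf2, are complex I assembly factors, and 4 carry a matching name without being subunits of these complexes (Cox7a2l, Cox4nb, Atp5s and Atp5sl, whose current names are Cox7a2l, Emc8, Dmac2l and Dmac2).

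Complexes I to IV pass electrons from NADH and succinate to oxygen and pump protons across the inner membrane, except complex II, which pumps none. Complex V, the ATP synthase, uses the returning protons to make ATP. A few subunits of complexes I, III, IV and V are encoded by mitochondrial DNA and are made by the mitochondrial ribosome, whereas all proteins of that ribosome and most subunits of the chain are encoded in the nucleus, translated in the cytosol and imported. In the stomach the acid-secreting parietal cells are known for their many mitochondria.

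The GFPhigh cells were cells of the pyloric stomach with a high level of green fluorescent protein, sorted by flow cytometry. The donor animals carried the knock-in allele Lgr5-EGFP-ires-CreERT2, so that fluorescence comes from the locus of Lgr5, a receptor of the Wnt pathway. They were compared with GFPlow cells, which were sorted from the same dissociated tissue for a low level and are not GFP-negative. Tissue of 20 stomachs from 20 mice was pooled before the sort, both populations carry the same knock-in allele, and the labels used here give no age. RNA of both populations (150 ng of total RNA was labelled) was hybridised together on 2 Agilent two-colour arrays with the dyes exchanged, so that array 1 carried GFPhigh in Cy3 and array 2 carried it in Cy5. Since each population gave 1 RNA sample, both arrays count as 1 replicate, and neither a test nor a p-value is given. Values are log2 ratios of GFPhigh over GFPlow on each array and as their mean, a positive value being higher in GFPhigh, and an SD over the 2 arrays holds technical error only. Levels are the normalized log2 intensity of one population on one array, and they are compared only within a probe.

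Lgr5 itself was at 2.33 on array 1 and 2.24 on array 2. Between 18.7% and 31.7% of the gene spots of a channel were well above background, and no gene spot was saturated. A gene was called measured where its brighter population stood well above background on each array, which held for 7832 genes. Of the 161 members 153 were measured, 142 of them in both populations on both arrays. In the other 11, GFPhigh was well above background on 1 array or none, so these could be kept only with GFPlow as the brighter population. Another 7 (Cox4i2, Cox6a2, Cox7b2, Cox8b, Cox8c, Mrps18b and Mrps27) did not pass this filter, and Uqcrb had no unflagged spot on both arrays. The limit of the 11 also applies to genes of the mitochondrial lists below with GFPhigh well above background on fewer than 2 arrays. The markers of other cell states moved with the sort: 8 of 8 measured proliferation markers had lower ratios in GFPhigh on both arrays. Only 5 of the 8 were above background in both populations. Their list had a summed level of 2770 and 2960 linear intensity units in GFPhigh, against 10700 and 10300 in GFPlow. Of 10 parietal cell markers 6 were measured, at a median log2 ratio of 0.57, with 4 above 0 and 1 below 0 on both arrays. The lower one was Car2, at -1.02 and -0.80, while Atp4a was at 0.94 and -0.27. The summed level of the list was 14600 and 13200 in GFPhigh, against 9920 and 10800 in GFPlow. Cckbr, Esrrg and Slc26a7 were not above background, and Kcne2 was not measured either. The sum for 4 surface mucous markers was 17700 and 26300 in GFPhigh, against 253000 and 157000 in GFPlow, that for 4 chief and gland base markers was 135000 and 203000 in GFPhigh, against 18000 and 13200 in GFPlow, and that for 5 endocrine markers was 2830 and 3610 in GFPhigh, against 17600 and 16200 in GFPlow. Among smooth muscle markers Des, Myh11 and Cnn1, and among leukocyte markers Ptprc, Cd3e and Csf1r, were not above background. The smooth muscle markers Acta2, Actg2 and Tagln were measured in both populations. Acta2 had levels of 8.69 and 8.36 in GFPhigh, against 9.13 and 9.03 in GFPlow. Actg2, at ratios of -0.35 and 0.74, and Tagln, at -0.10 and 0.92, changed sign between arrays. The leukocyte marker Fcer1g was above background in GFPlow on both arrays. The part of these cell types in the results below was not tested, and in bulk RNA fewer cells of a type and less RNA per cell cannot be told apart.

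The first comparison asked how far any member differs between the populations. None did so by a large factor. At least 2-fold differences in the same direction on both arrays were found for 0 of 153 members towards GFPhigh and 0 towards GFPlow, where 1.76% and 2.69% of all measured genes passed. At 1.5-fold, 1 member was higher in GFPhigh (5.59% of all genes) and 5 were lower (7.51% of all genes), which is 0.654% and 3.27% of the measured members. Both member shares lie below those of all genes. The mean ratios of the members ran from -0.84 to 0.91 with an SD of 0.32 between members, while the SD between all measured genes was 0.57.

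The second comparison set the respiratory chain against the mitochondrial ribosome. The ribosomal proteins were mostly lower in GFPhigh: their median log2 ratio was -0.27 on array 1, -0.39 on array 2 and -0.29 for the mean of the arrays, a 1.22-fold difference, with an SD of 0.28 between the 73 measured genes. Over genes above background in both populations it was -0.28 (65 genes), and that of the chain -0.04 (72 genes). The chain subunits were centred near no difference, with medians of -0.20 on array 1, 0.02 on array 2 and -0.05 for the mean over 74 genes (SD 0.30), beside -0.06 for all measured genes. A ratio below 0 on both arrays was found for 44 of 73 ribosomal genes (60.3%) and for 24 of 74 chain genes (32.4%), against 36.6% of all measured genes. A ratio above 0 on both arrays was found for 4 ribosomal genes (5.48%) and 12 chain genes (16.2%), against 28.1% of all genes. Both GFPhigh levels lay below both GFPlow levels for 41 ribosomal genes (56.2%) and 23 chain genes (31.1%), against 33.4% of all genes, and above them for 3 and 10, against 25.5% of all genes.

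The difference between the medians, chain minus ribosome, was 0.24, and it was 0.07 on array 1 and 0.43 on array 2. With each array's median set to 0 in place of loess it was 0.06, and it was 0.36 with the signals as processed by the scanner software. It was above 0 in all of these settings, but its size rests mostly on array 2.

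**Figure D1:**
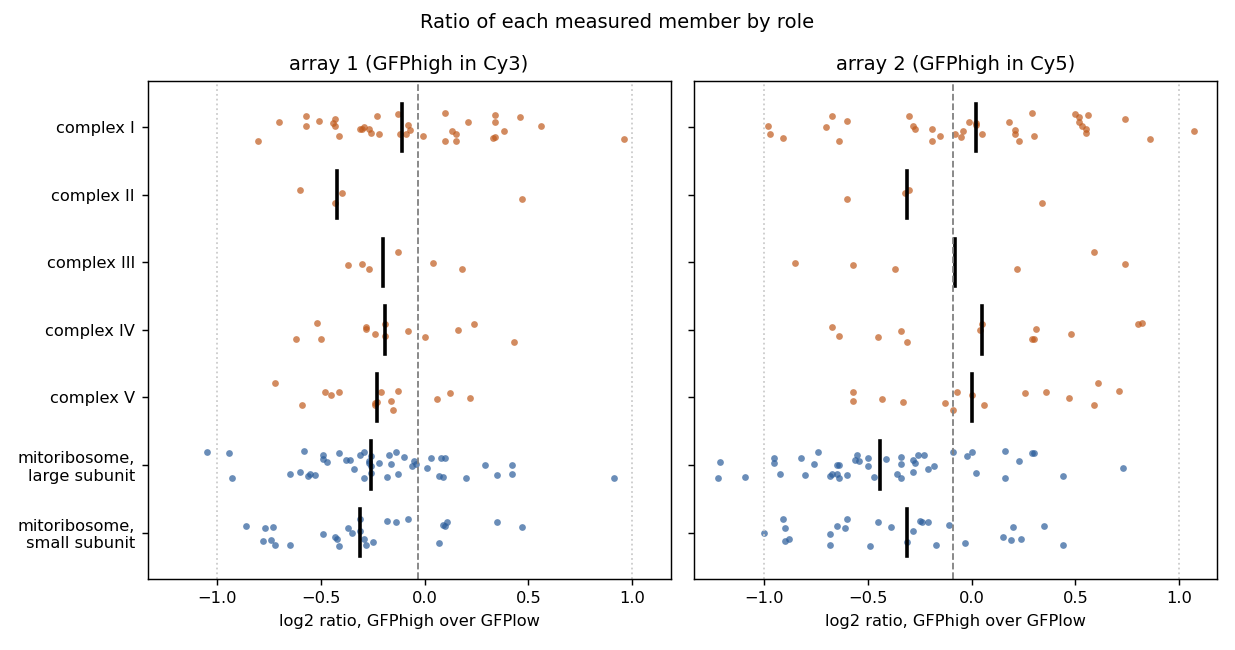
Log2 ratio of GFPhigh over GFPlow (horizontal axis) of each measured member on array 1 (left) and array 2 (right), by role. Black bars are group medians, dashed lines the median of all measured genes and dotted lines 2-fold. The medians of both ribosomal subunits lie left of the dashed line on both arrays. They are -0.26 and -0.44 for the large and -0.31 and -0.31 for the small subunit. That of complex II, over 4 genes, also lies left on both arrays (-0.42 and -0.31), whereas those of complexes I, IV and V cross the line.

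Relative to other genes these statements depend on the scaling. Median centring moved the median of all measured genes to -0.52, and spike-in centring, which sets the mean ratio of 10 spike-in probes to 0, moved it to -0.84. Read against that median, the ribosomal genes were at -0.23 with loess, -0.40 with median centring and -0.35 with the processed signals, on the lower side each time. Spike-in centring shifts every loess ratio by the same amount, so its -0.24 repeats the loess value up to rounding. The chain was at 0.01 with loess, spike-in centring and the processed signals and at -0.34 with median centring. Under spike-in centring 43 members were at least 2-fold lower in GFPhigh on both arrays, beside 1644 of all genes.

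**Figure D2:**
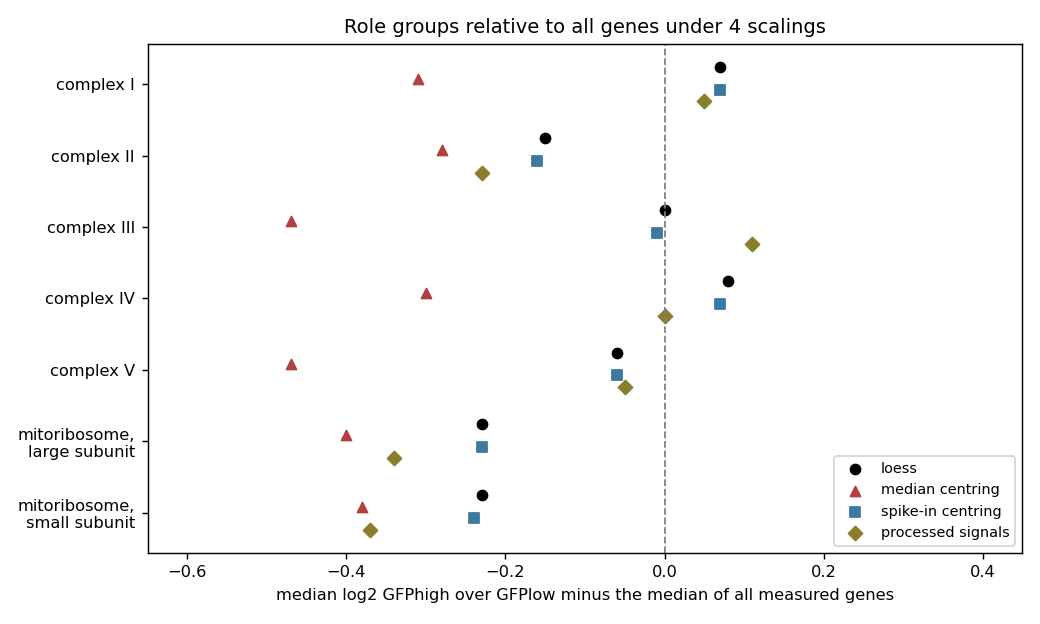
Median log2 ratio of GFPhigh over GFPlow of each role group minus the median of all measured genes (horizontal axis) under 4 scalings. Both ribosomal subunits lie between -0.40 and -0.23 under all 4, and complex II, with 4 genes, between -0.28 and -0.15. Complexes I, III, IV and V lie near 0 except under median centring, where they are at -0.47 to -0.30. Spike-in centring shifts all genes alike, so on this axis it repeats loess.

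The chain and ribosomal probes also differ in brightness. The median average signal was 11.94 (log2) for chain genes and 9.40 for ribosomal genes, and brighter members had higher ratios, with a Pearson coefficient between signal and mean ratio of 0.37 over 74 chain genes, 0.33 over 73 ribosomal genes and 0.07 over 7832 genes, all points sharing the same pair of RNA samples. On array 1 alone the coefficient of the chain was 0.00. Among the 6236 genes above background in both populations, those with a signal from 7.73 to 11.09 were taken, a range chosen after the values were seen. There the median was -0.20 for 20 chain genes, -0.34 for 49 ribosomal genes and 0.00 for 4676 genes in all. In that range 10 of the 20 chain genes and 35 of the 49 ribosomal genes (71.4%) had ratios below 0 on both arrays, against 32.0% of all genes, and the medians of chain and ribosome were 0.14 apart. Above it the median was 0.06 for 51 chain genes, -0.06 for 14 ribosomal genes and -0.06 for 780 genes in all. In this brightest eighth the ribosomal median was thus no lower than that of all genes. Ratios were below 0 on both arrays for 13 of the 51 chain genes and 2 of the 14 ribosomal genes, against 238 of the 780. The chain median there was -0.19 on array 1 and 0.18 on array 2, beside -0.13 and 0.14 for all genes. The part of brightness in the difference between chain and ribosome was not tested further.

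**Figure D3:**
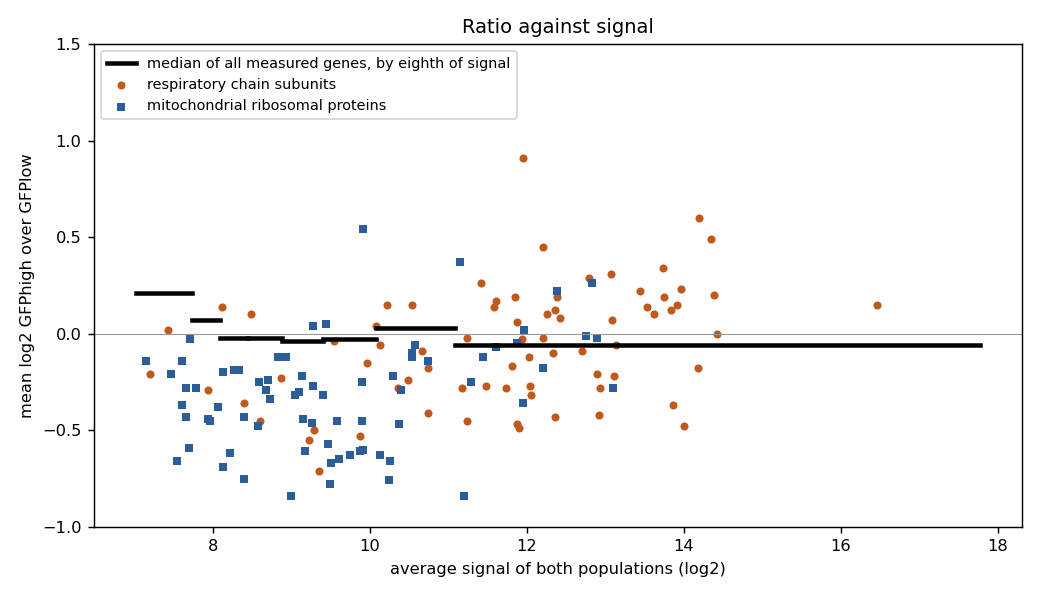
Mean log2 ratio of GFPhigh over GFPlow (vertical axis) against the average log2 signal of both populations (horizontal axis) for chain subunits (circles) and ribosomal proteins (squares). Black segments are medians, in eighths of signal, of the 6236 genes above background in both populations, between -0.06 and 0.21; ribosomal proteins cluster below the segments at signals under 11.09.

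Single members agreed poorly between the arrays. Across members the ratios of array 1 and array 2 had a Pearson coefficient of -0.03 for 74 chain genes, 0.00 for 73 ribosomal genes and 0.06 for all 153, against 0.60 over all 7832 measured genes, whose ratios span a wider range. On the 2 arrays 64 of 153 members had ratios of opposite sign, and 15 of these were over 1 log2 unit apart. Of the 15, 10 were lower on array 1 and 5 on array 2. For that reason a member is described below as higher or lower only where both arrays have the same sign, and both values are given.

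**Figure D4:**
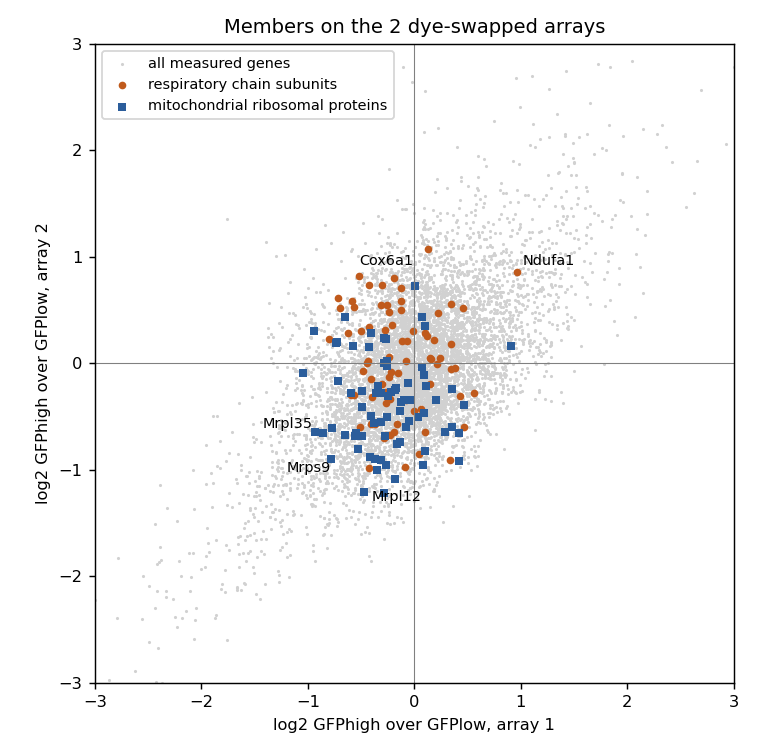
Log2 ratio of GFPhigh over GFPlow on array 1 (horizontal axis) and array 2 (vertical axis) for all measured genes (grey), chain subunits (circles) and ribosomal proteins (squares); genes beyond the axes are not drawn. The members form a cloud with no slope (Pearson coefficient 0.06 over 153 genes), with Ndufa1 alone at upper right and the ribosomal proteins displaced to the lower left.

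Complex I, the NADH dehydrogenase, held the member with the highest ratio. Its 36 measured subunits had a median of 0.01. On both arrays 7 were above 0 (19.4%, against 28.1% of all genes) and 10 below 0 (27.8%, against 36.6%). The complex I median was -0.83 under median centring, where that of all measured genes was -0.52. Ndufa1, a small membrane subunit needed for assembly of the complex and encoded on the X chromosome, had levels of 12.47 and 12.34 in GFPhigh, against 11.52 and 11.48 in GFPlow. The arrays gave log2 ratios of 0.96 and 0.86, a mean of 0.91 ± 0.07, and both GFPhigh levels were above both GFPlow levels. The mean ratio stayed above 0 under the other scalings but was 0.12 with spike-in centring and 0.07 with median centring, where array 1 gave 1.26 and array 2 gave -1.12. The probe lies at chrX:34729873-34729932 of mm9, the build that the file headers name; no annotation of that build was used, so exons and UTRs are not given.

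Ndufb11, another X-linked membrane subunit, was at 0.13 and 1.07, and Ndufa13, an accessory subunit of the membrane arm also known as GRIM-19, at 0.46 and 0.52. The Ndufa13 levels of 14.58 and 14.61 in GFPhigh lay above the 14.13 and 14.10 in GFPlow. On the lower side was Ndufv2, an iron-sulphur subunit of the NADH-oxidising module, with 8.89 and 8.99 in GFPhigh, against 9.41 and 9.58 in GFPlow, and ratios of -0.51 and -0.60. Ndufab1, the mitochondrial acyl carrier protein, was at -0.09 and -0.97. For Ndufv2 and Ndufab1 both GFPhigh levels were below both GFPlow levels.

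A split of complex I by function, made after the values were seen, is given as a description. The 7 nuclear-encoded core subunits, which carry the flavin, the iron-sulphur clusters or the quinone site and have bacterial counterparts, had a median of -0.28 (-0.30 on array 1 and -0.60 on array 2). The 29 supernumerary subunits had a median of 0.10 (-0.09 and 0.18). Of the core subunits 0 were above 0 on both arrays and 3 below (42.9%). Of the supernumerary ones 7 were above and 7 below (24.1% each). Among all measured genes 28.1% were above and 36.6% below, so apart from the 0 these shares lie near those of all genes. The core probes were also dimmer, with a median signal of 10.49 against 11.94. Ndufs1 and Ndufs8, both core subunits, went opposite ways on the arrays, Ndufs1 at -0.80 and 0.23 and Ndufs8 at 0.33 and -0.91. The supernumerary Ndufa3 (-0.43 and 0.74), Ndufs4 (-0.70 and 0.52) and Ndufs6 (-0.57 and 0.53) did so too.

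Complex II, succinate dehydrogenase, is the smallest complex and has no mitochondrially encoded subunit. Its 4 genes had a median of -0.21. Sdhd, a membrane anchor, had levels of 10.91 and 11.12 in GFPhigh, against 11.51 and 11.43 in GFPlow (ratios -0.60 and -0.30). Sdha, the flavoprotein that oxidises succinate, was at -0.40 and -0.32. The iron-sulphur subunit Sdhb (0.47 and -0.60) and the second membrane anchor Sdhc (-0.43 and 0.34) had opposite signs on the arrays. Complex II therefore had 2 members lower in GFPhigh on both arrays and 0 higher.

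Complex III, which passes electrons from ubiquinol to cytochrome c, had a median of -0.06 over 6 of 7 genes. The core protein gene Uqcrc2 had 11.68 and 11.59 in GFPhigh, against 12.05 and 12.16 in GFPlow, and ratios of -0.37 and -0.57. Uqcrc1, the other core protein, was at -0.27 and -0.37, and the Rieske iron-sulphur protein Uqcrfs1 at 0.04 and -0.85. The small subunits were on the other side: Uqcrq was at 0.18 and 0.22, with levels of 14.51 and 14.47 in GFPhigh, against 14.33 and 14.25 in GFPlow. The hinge protein Uqcrh was at -0.30 and 0.74 and Uqcr (now Uqcr11) at -0.13 and 0.59, so that Uqcrq alone of the small subunits was higher on both arrays. Median centring put all 6 measured genes below 0, but under it only 1 of all 153 measured members was above 0.

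Complex IV, cytochrome c oxidase, had a median of 0.02 over 13 of 18 genes. This median was -0.05 with the processed signals and -0.82 with median centring, where that of all measured genes was -0.52. Cox5a, a subunit on the matrix side, had 13.84 and 13.71 in GFPhigh, against 14.12 and 14.37 in GFPlow (ratios -0.28 and -0.67). Cox5b, which binds zinc, was at -0.19 and -0.64. Cox6b1, on the intermembrane side, was at 0.00 and -0.45. Higher in GFPhigh was Cox4i1, the common form of the regulatory subunit Cox4, at 0.24 and 0.05. Cox6a1 had 16.31 and 16.85 in GFPhigh, against 16.83 and 16.03 in GFPlow, and Cox6c was at -0.19 and 0.80, so that for both genes the sign depended on the array.

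Several complex IV subunits exist in tissue-restricted forms. Cox4i2, the form of Cox4 best known from lung, the heart and muscle forms Cox6a2 and Cox8b, and the testis forms Cox7b2 and Cox8c, were not well above background in either population. Their partners Cox4i1, Cox6a1, Cox7b and Cox8a were measured in both. The muscle form Cox7a1 was measured at 8.63 and 8.43 in GFPhigh, against 8.47 and 8.39 in GFPlow, a ratio of 0.16 and 0.04, beside -0.50 and 0.30 for its partner Cox7a2. Cox6b2, a testis form, had levels of 7.31 and 7.56 in GFPhigh, against 7.59 and 7.24 in GFPlow, and the ranges overlapped.

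Complex V, the ATP synthase, had a median of -0.12 over its 15 genes. On both arrays 6 were below 0 (40.0%, against 36.6% of all genes) and 2 above 0 (13.3%, against 28.1%). The catalytic subunit gene Atp5b had 13.82 and 13.52 in GFPhigh, against 13.98 and 14.10 in GFPlow, and ratios of -0.16 and -0.57. Atp5f1 (now Atp5pb), part of the stator stalk, was at -0.41 and -0.57. Atp5k, the membrane subunit e, was at -0.48 and -0.07. Higher on both arrays were Atp5e, the smallest subunit of the F1 rotor (0.22 and 0.47), and Atp5h, a stalk subunit (0.12 and 0.26), while Atp5j, coupling factor F6, was at -0.13 and 0.71. The genes Atp5g1, Atp5g2 and Atp5g3 encode the same mature c-ring protein. Atp5g1 was at -0.15 and -0.09, Atp5g2 at -0.72 and 0.61 and Atp5g3 at -0.59 and 0.59, so the arrays agreed in sign only for Atp5g1. Probes for chain subunits may also bind transcripts of their processed pseudogenes, which was not tested.

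Among proteins of the large ribosomal subunit, 28 of 46 were below 0 and 3 above 0 on both arrays, with a median of -0.29. Mrpl12, which forms the stalk that recruits translation factors, had 11.02 and 10.55 in GFPhigh, against 11.49 and 11.75 in GFPlow, and ratios of -0.47 and -1.21. Mrpl35 had 9.01 and 9.19 in GFPhigh, against 9.94 and 9.83 in GFPlow, and ratios of -0.93 and -0.64, past 1.5-fold on both arrays. Mrpl40, at -0.29 and -1.22, and Mrpl51, at -0.53 and -0.80, also had both GFPhigh levels below both GFPlow levels. Mrpl19 passed 1.5-fold as well (-0.65 and -0.67), but was well above background in GFPhigh on 1 array only. The genes above 0 on both arrays were Mrpl16, a counterpart of bacterial L16, at 0.91 and 0.16, Mrpl55 at 0.01 and 0.73, and Mrpl33 at 0.07 and 0.44. Mrpl9, at -0.26 and -0.02 with overlapping levels, was not well above background in GFPhigh on either array. Mrpl11 (0.42 and -0.92), Mrpl24 (0.42 and -0.65), Mrpl46 (0.08 and -0.95) and Mrpl49 (-0.94 and 0.30) went opposite ways on the arrays.

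The small ribosomal subunit had a median of -0.29 over 27 of 29 genes (-0.31 on each array, beside -0.26 and -0.44 for the large subunit), with 16 below 0 and 1 above 0 on both arrays. Mrps9, a counterpart of bacterial S9, had 8.57 and 8.59 in GFPhigh, against 9.34 and 9.49 in GFPlow, and ratios of -0.78 and -0.90 (-0.84 ± 0.09). Mrps35 had 7.94 and 8.10 in GFPhigh, against 8.80 and 8.75 in GFPlow, and Mrps25 had 7.72 and 7.85 in GFPhigh, against 8.49 and 8.46 in GFPlow. These 3 genes and the large-subunit genes Mrpl35 and Mrpl19 are the 5 members past 1.5-fold towards GFPlow. Mrps33 was the gene above 0 on both arrays (0.10 and 0.35), while Mrps18a (0.47 and -0.39), Mrps31 (0.35 and -0.24) and Mrps12 (-0.65 and 0.44) changed sign between arrays. The grouping follows the gene names: the products of Mrps30 (-0.31 and -0.91) and Mrps18a are known to sit in the large subunit, and that of Mrps36 (-0.14 and -0.45) is known as a component of the oxoglutarate dehydrogenase complex.

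With the processed signals Mrps25, Mrps35 and Mrpl19 were past 2-fold on both arrays, at mean ratios of -1.20, -1.11 and -1.23. All 5 genes were below 0 under each of the 4 scalings. The Mrps9 probe spans 3805 positions (chr1:42956365-42960169, mm9) and the Mrps35 probe 9121 positions (chr6:147009999-147019119, mm9), more than the length of a probe, so each joins 2 or more aligned blocks. The Mrpl35 probe lies at chr6:71766082-71766141, that of Mrps25 at chr6:92124124-92124183 and that of Mrpl19 at chr6:81911970-81912029 of mm9, each in a single block.

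**Figure D5:**
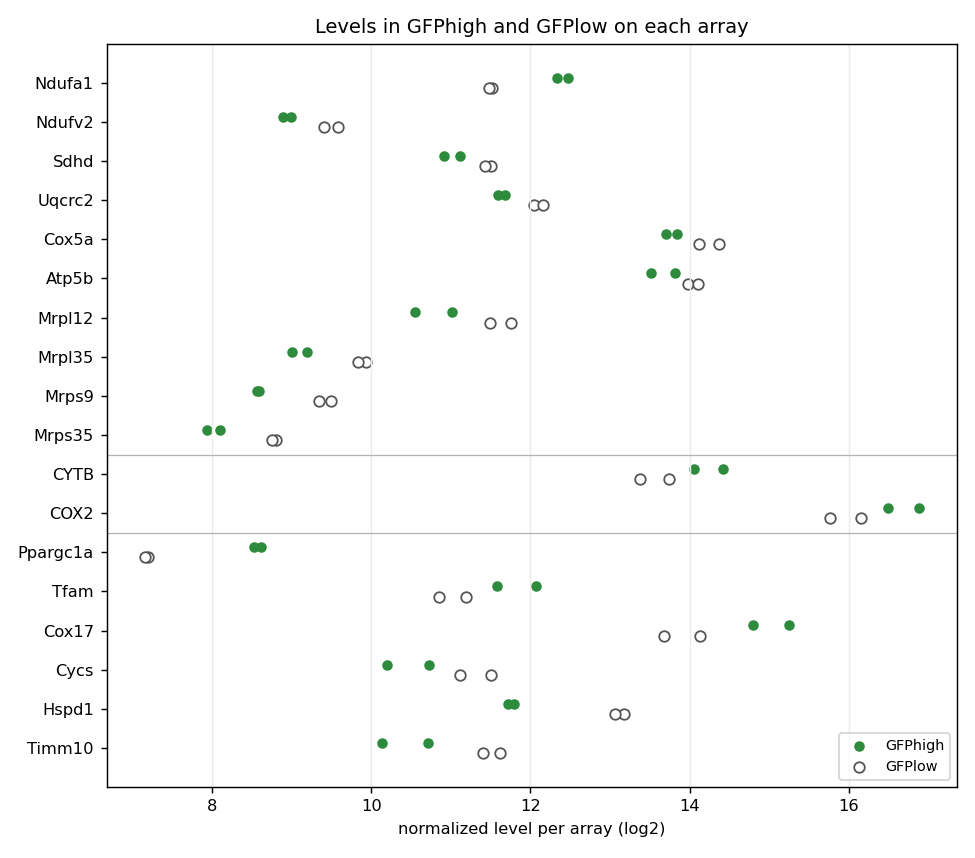
Normalized log2 level of GFPhigh (filled circles) and GFPlow (open circles) on each of the 2 arrays for members (top), mitochondrially encoded transcripts (middle) and other mitochondrial genes (bottom), genes chosen for display from those named in the text. Levels are comparable within a gene only. GFPhigh lies right of GFPlow for Ndufa1, CYTB, COX2, Ppargc1a, Tfam and Cox17 and left of it for the others. Among the genes on the right, the order turns on array 2 under median centring for Ndufa1, CYTB, COX2, Tfam and Cox17. Under spike-in centring, which lowers each ratio by 0.78, it turns on array 1 for CYTB, COX2, Tfam and Cox17.

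The promoters of the members were searched for 3 motifs known from genes of respiration, in RefSeq windows of assembly GRCm38.p6 that run from 250 bases before to 50 bases after the start. The motifs were GCGCA, any base and then GCGC for the factor NRF1, CCGGAAG for the factor GABPA (also called NRF2) and AANATGGC for YY1, where N is any base. Both strands were searched, and matches of different motifs were allowed to overlap. A window was found for 137 of 161 members. NRF1 matches were in 21.2% of these windows, GABPA matches in 29.9% and YY1 matches in 27.0%. Over all 27025 RefSeq genes with a window, on the array or not, the shares were 5.19%, 9.93% and 6.96%. Over the 5880 measured genes with a window they were 12.7%, 22.6% and 10.8%. At least 1 motif was in 65.2% of chain windows and 66.7% of ribosomal windows, against 39.0% of the measured genes. A match is a string of letters and does not show that the factor binds.

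The ratios of members with and without a motif are given as a description. Ribosomal genes with an NRF1 match had a median of -0.41 (12 genes), against -0.28 without one (52 genes). For GABPA the medians were -0.21 with (22 genes) and -0.33 without a match (42 genes), and for YY1 they were -0.38 with (18 genes) and -0.28 without (46 genes). In the chain the medians with a match were -0.06 for NRF1, 0.08 for GABPA and -0.09 for YY1, against -0.06, -0.09 and -0.06 without one.

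To show what the matches look like, the 150 bases before the start are printed for selected members. For each motif these have the lowest and the highest mean ratio among the considered stretches that hold it. The order is NRF1 (21 stretches), GABPA (23 stretches) and YY1 (4 stretches). Only members above background in both populations were considered, and some promoters were left out. Members outside these sets may therefore have a match and a more extreme ratio. Sequences are from RefSeq (GRCm38.p6), 5′ to 3′ along the gene, with matches to any of the motifs in capitals.
Mrpl12 (chr11:120484487-120484636, plus strand): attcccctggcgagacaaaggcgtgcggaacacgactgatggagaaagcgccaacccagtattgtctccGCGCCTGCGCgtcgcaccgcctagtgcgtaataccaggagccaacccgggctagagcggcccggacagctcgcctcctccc
Atp5h (chr11:115419920-115420069, minus strand): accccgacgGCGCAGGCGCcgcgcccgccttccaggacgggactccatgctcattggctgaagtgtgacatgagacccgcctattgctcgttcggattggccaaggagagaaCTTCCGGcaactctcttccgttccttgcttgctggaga
Mrpl51 (chr6:125192050-125192199, plus strand): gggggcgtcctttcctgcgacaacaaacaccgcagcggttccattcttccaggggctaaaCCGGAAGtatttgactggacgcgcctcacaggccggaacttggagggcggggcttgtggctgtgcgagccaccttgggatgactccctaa
Atp5e (chr2:174464102-174464251, minus strand): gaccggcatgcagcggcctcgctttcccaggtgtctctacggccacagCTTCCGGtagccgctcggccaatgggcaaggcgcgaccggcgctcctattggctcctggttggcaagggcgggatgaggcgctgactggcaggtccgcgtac
Mrpl36 (chr13:73330859-73331008, plus strand): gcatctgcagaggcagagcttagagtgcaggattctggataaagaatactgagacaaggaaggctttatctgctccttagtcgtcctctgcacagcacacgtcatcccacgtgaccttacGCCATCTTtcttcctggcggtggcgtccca
Ndufa7 (chr17:33824495-33824644, plus strand): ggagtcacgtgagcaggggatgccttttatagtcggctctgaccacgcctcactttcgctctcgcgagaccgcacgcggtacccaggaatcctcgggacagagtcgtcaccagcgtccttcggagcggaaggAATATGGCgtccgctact
Mrpl12 (mean ratio -0.84), Mrpl51 (-0.66) and Mrpl36 (-0.47) are the lowest of the considered stretches with their motif. Atp5h (0.19), Atp5e (0.34) and Ndufa7 (0.45) are the highest of these. Because a lowest and a highest stretch were picked for each motif, these pairs cannot show whether a motif goes with the ratio. The GABPA motif is read on the minus strand, as CTTCCGG, in Atp5h and Atp5e, and Atp5h holds an NRF1 match as well.

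Transcripts of mitochondrial DNA are products of the same chain but do not match the naming rule. The array has a probe named CYTB, for cytochrome b of complex III, and one named COX2, for the copper-binding subunit 2 of complex IV. Their probe sequences, which match the mitochondrial chromosome of mm9, are shown because they read the transcripts that the mitochondrial ribosome translates.
CYTB (chrM:15099-15158): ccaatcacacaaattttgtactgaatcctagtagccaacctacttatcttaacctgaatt
COX2 (chrM:7619-7678): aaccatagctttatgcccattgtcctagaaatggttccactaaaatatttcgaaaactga
CYTB had levels of 14.06 and 14.42 in GFPhigh, against 13.74 and 13.38 in GFPlow, and COX2 had 16.49 and 16.88 in GFPhigh, against 16.15 and 15.76 in GFPlow. The ratios were 0.32 and 1.04 for CYTB (0.68 ± 0.50) and 0.34 and 1.12 for COX2 (0.73 ± 0.55), so both GFPhigh levels were above both GFPlow levels for these genes. Another mitochondrial probe, named BE368005 (chrM:11419-11475), did not show this order: it had 14.11 and 14.87 in GFPhigh, against 14.12 and 13.37 in GFPlow, with a ratio of -0.01 on array 1 and a mean of 0.74 ± 1.07. The order of CYTB and COX2 depends on the scaling: the mean ratios were 0.82 and 0.85 with the processed signals, -0.31 and -0.44 with median centring and -0.10 and -0.05 with spike-in centring. Median centring gave 0.60 and 0.56 on array 1 and -1.21 and -1.45 on array 2, while spike-in centring gave -0.46 and -0.45 on array 1 and 0.25 and 0.34 on array 2. Against the median of all genes under the same scaling, each of these means is higher.

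Of 9 listed nuclear regulators of mitochondrial genes 6 were measured, and 1 was at least 2-fold higher in GFPhigh, where 1.76% of all genes passed. Ppargc1a, which encodes the coactivator PGC-1α, a driver of mitochondrial biogenesis in muscle, brown fat and other tissues, had 8.61 and 8.53 in GFPhigh, against 7.19 and 7.16 in GFPlow. Its ratio was 1.43 on array 1 and 1.38 on array 2, with an SD of 0.03, and the mean was 1.00 with median centring, 0.62 with spike-in centring and 2.19 with the processed signals. Its relatives were lower: Ppargc1b was at -0.82 and -0.52 and Pprc1 at -0.37 and -0.38. The factors of the promoter motifs showed no such difference, with Gabpa at -0.16 and -0.01 and Yy1 at 0.15 and -0.62, and Nrf1, Gabpb1 and Esrrg were not above background. Esrra, a nuclear receptor partner of PGC-1α, was at -0.13 and 0.35.

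Genes that copy, transcribe and translate mitochondrial DNA had a median of -0.22 over 17 of 22 genes, with 0 past 2-fold in either direction. On both arrays 10 were below 0 (58.8%, against 36.6% of all genes) and 2 above 0 (11.8%, against 28.1%). Tfam, which packages mitochondrial DNA and starts its transcription, had 11.58 and 12.07 in GFPhigh, against 11.19 and 10.85 in GFPlow, and ratios of 0.40 and 1.22. The elongation factor gene Gfm1 was at -0.45 and -1.05, and Lrpprc, which stabilises mitochondrial messenger RNA, at -0.90 and -0.61. Under median and spike-in centring the Tfam mean was 0.01 and 0.02.

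Assembly factors of the complexes had a median of -0.20 over 25 of 32 genes, with 0 past 2-fold. On both arrays 13 were below 0 (52.0%, against 36.6% of all genes) and 5 above 0 (20.0%, against 28.1%). Cox17, the copper chaperone of complex IV, had 14.80 and 15.25 in GFPhigh, against 14.13 and 13.68 in GFPlow, and ratios of 0.66 and 1.57. Uqcc3, a complex III assembly factor, was at 0.29 and 0.80, and Bcs1l, which inserts the Rieske protein, at -0.50 and -0.67. The 2 assembly factors among the members, Ndufaf1 and Ndufaf2, were at -0.64 and -0.16 and at -0.40 and -0.24.

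Mobile carriers and transporters that feed or couple the chain were mostly lower in GFPhigh, with a median of -0.38 over 11 of 12 genes. On both arrays 8 were below 0 (72.7%, against 36.6% of all genes). Cycs, cytochrome c, had 10.73 and 10.20 in GFPhigh, against 11.11 and 11.50 in GFPlow, and ratios of -0.39 and -1.30. Cyc1, the cytochrome c1 subunit of complex III, was at -0.87 and -0.40, and the uncoupling protein gene Ucp2 at -0.35 and -0.85. None of the 11 was past 2-fold on both arrays in either direction.

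The machinery that imports and folds mitochondrial proteins had the lowest median of the mitochondrial lists, -0.52 over 27 genes (-0.50 on array 1 and -0.65 on array 2), with 21 below 0 (77.8%, against 36.6% of all genes) and 2 above 0 on both arrays. Above background in both populations were 24 of the 27, so the rest could be kept only with GFPlow as the brighter population. Over all genes above background in both populations, 28.6% were below 0 on both arrays. In this list 2 genes were at least 2-fold lower in GFPhigh (2.69% of all genes passed) and 6 at least 1.5-fold lower (22.2%, against 7.51% of all genes). Hspd1, the chaperonin HSP60, had 11.79 and 11.72 in GFPhigh, against 13.18 and 13.06 in GFPlow, and a ratio of -1.37 ± 0.03. Timm8a1, an intermembrane-space chaperone, was at -1.10 and -1.17, and Timm10, another of these, at -0.92 and -1.27. The means of all 3 over both arrays were below -1 under each of the 4 scalings, though on array 1 with median centring Timm8a1 was at -0.78 and Timm10 at -0.60. The proliferation markers, which are not mitochondrial, were at a median of -1.64 in the same direction.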

How the data were processed

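RNA of GFPhigh and GFPlow cells was measured on 2 dye-swapped Agilent arrays. The authors deposited scanner output: mean spot intensity per channel with the local background median intensity, processed intensities, their log10 ratio of Cy5 over Cy3 and the p-value of that ratio from the error model of a single array, all per the file headers. That p-value was not used. The headers name Feature Extraction 10.5.1.1 and the submitters' processing notes 9.5.3. The value table deposited for the series holds the same log10 ratios turned to GFPhigh over GFPlow (largest difference 0.005, column medians 0.0188 and -0.0458).

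Intensities were background-corrected (normexp, offset 50) and normalized by loess with limma 3.58.1 in R 4.3.3. Control spots had weight 0 and spots flagged as outliers were left out. Repeat spots were averaged, a probe stayed in if the brighter population stood well above background on each array, and the brightest such probe stood for its gene. Levels per channel are those after loess with Aquantile. The steps were tested on simulated arrays. Offset and normexp pull ratios of dim probes towards 0.

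Names came from RefSeq (GRCm38.p6): of 41174 probes 25097 were named through an accession, 6333 by symbol and 1640 by an older symbol, and 8104 kept the file's name. Of 161 members 160 matched by accession.

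Members and gene lists were chosen with earlier results of these data known. Named were, per role group, up to 3 members with the highest and up to 3 with the lowest mean ratio among those above background in both populations, members past the thresholds, tissue-restricted isoforms, the Atp5g genes, members whose arrays disagree by over 1 log2, and up to 3 genes of each pathway list. Some genes that this rule names are not reported here. Ndufa7, Mrpl36, Mrpl51, Mrps30, Mrps36, Esrra, Gabpa and Yy1 were named after their values were seen. Alternatives covered background correction, signals, centring, filters, the threshold, the rule for genes with several probes, the deposited value table and single arrays.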

Additional observations from a re-analysis of the deposited data

How the results depend on the processing

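The 5 main results (the 2 counts of members past 2-fold, the 2 group medians and their difference) were recomputed under 11 alternatives each. Of 55 values 15 moved and 40 did not, a median or difference being counted as moved beyond 1 SD between the arrays (0.15 for the chain median, 0.09 for the ribosomal median and 0.24 for the difference). For the difference this SD is as large as its value of 0.24, so even a fall to near 0 would not count as moved. All 11 of its values are among the 40, and they do not show that the difference is stable. Neither the ribosomal median nor the difference changed sign, while the chain median, -0.05, was 0.03 on array 2 alone. The count towards GFPlow, 0, was 3 with the processed signals and with the value table, 43 with spike-in centring, 5 at 1.5-fold and 1 to 3 on a single array. The count towards GFPhigh, 0, was 1 at 1.5-fold and 0 to 1 on a single array. The ribosomal median of -0.29 was -0.40 with the processed signals and the value table, -0.92 with median centring, -1.08 with spike-in centring and -0.40 to -0.27 on a single array. The chain median was -0.86 with median centring, -0.83 with spike-in centring and -0.20 to 0.03 on a single array. Their difference of 0.24 ran from 0.06 to 0.43, and it was 0.14 in the shared brightness range, an alternative chosen after seeing the data. Counts over all genes at 2-fold, 138 towards GFPhigh and 211 towards GFPlow, were 10 and 215 with median centring, 21 and 1644 with spike-in centring, and 353 and 513 with the processed signals. Spike-in centring lowers each ratio by 0.78, so it cannot change the difference between the medians. Median centring leaves out the correction for dye curves. Beyond this the cause was not tested. No paired analysis was possible because the 2 arrays hold the same pair of RNA samples. Dim probes limit what can be said of the 7 members not above background.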

Other observations

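Some subunits and assembly factors carry an older or clone name on this array and were not matched by the naming rule. A list of 16 such genes, put together after the names were seen, had 14 measured members with a median log2 ratio of -0.15, 7 below 0 and 1 above 0 on both arrays. The ribosomal proteins in it were lower or mixed: Mrpl42 was at -0.66 and -0.42, Dap3, a small-subunit protein first known as a death-associated protein, at -0.27 and -0.65, Mrpl57 at -0.42 and -0.08 and Mrpl58 at 0.13 and -0.42. Uqcr10, a small subunit of complex III, had levels of 13.57 and 14.18 in GFPhigh, against 14.43 and 13.62 in GFPlow, and its arrays were at -0.87 and 0.56. Sdhaf4, an assembly factor of complex II, was at 0.13 and 1.09, and the complex I assembly factor Ndufaf4 at -0.69 and -0.33. Of the 14 genes 0 were past 2-fold on both arrays in either direction.

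Where 35 members had several kept probes, the probes of a gene differed by a median of 0.19 in their mean log2 ratio. The widest gap was 0.56, for Ndufa12, whose probes ran from -0.37 to 0.19, and 3 members had probes of opposite sign. The median SD between the 2 arrays was 0.29 over the 153 measured members and 0.27 over all measured genes.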
